A study of Homo sapiens with 2 samples.

Results

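The MAP kinase phosphatases are the dual-specificity phosphatases that switch off the kinases ERK, JNK and p38. Their 10 genes, DUSP1, DUSP2, DUSP4, DUSP5, DUSP6, DUSP7, DUSP8, DUSP9, DUSP10 and DUSP16, were taken by symbol from the array's gene annotation. All 10 were found, each with 1 probe, among 18356 genes measured in the series. The cells were K562, an established human leukaemia line driven by the fusion kinase BCR-ABL1. Both groups were exposed for 6 h to 2 µM imatinib, which blocks this kinase. The first group was grown with erythropoietin (EPO), the cytokine of red cell formation. The second carries no mention of EPO in its labels and is taken as grown without it, because the growth protocol names both conditions. Each group is 1 whole-transcript Affymetrix array, so no value has a replicate error, no test was possible and no p-value is given. Untreated cells were not analysed here, and 1 cell line was used.

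MAP kinases are activated by phosphorylation of a threonine and a tyrosine in their activation loop, and a MAP kinase phosphatase removes both phosphates. The family falls into 3 classes. Nuclear phosphatases, encoded by DUSP1, DUSP2, DUSP4 and DUSP5, are made on demand from genes that growth factors and stress induce rapidly. Cytoplasmic phosphatases, encoded by DUSP6, DUSP7 and DUSP9, prefer ERK, and those encoded by DUSP8, DUSP10 and DUSP16 prefer JNK and p38. In K562 cells BCR-ABL1 feeds the RAS and ERK pathway, and the EPO receptor can feed the same pathway through JAK2.

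The deposited values are read as log2 deviations of each probe from a baseline that the authors subtracted and that is unknown here. The base of the logarithm is not stated, so every fold rests on base 2. A value therefore says whether a probe lay above or below that baseline on an array, not how abundant the transcript was, and levels cannot be compared between genes. The difference, with EPO minus without EPO, cancels the baseline. A gene was called at a difference of at least 2-fold, which is 1 on the log2 scale. With centred values, the identity of the cells could not be checked on marker genes. In a bulk sample, a change in some of the cells and a smaller change in all of them cannot be told apart.

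The transcription start regions of 4 members are shown because they carry the motif matches described below and span the largest negative and the largest positive difference of the family. They are RefSeq sequences of the GRCh38.p14 build, the 250 bases before the annotated start, 5′ to 3′ on the strand of the gene. DUSP1 lies at chr5:172771196-172771445, DUSP2 at chr2:96145441-96145690, DUSP8 at chr11:1572272-1572521 and DUSP16 at chr12:12562864-12563113, all on the minus strand. Capitals mark matches to the cyclic AMP response element (TGACGTCA), the E box (CACGTG), the TATA box (TATAAA) and the EGR1 site (GCGNGGGCG).
DUSP1: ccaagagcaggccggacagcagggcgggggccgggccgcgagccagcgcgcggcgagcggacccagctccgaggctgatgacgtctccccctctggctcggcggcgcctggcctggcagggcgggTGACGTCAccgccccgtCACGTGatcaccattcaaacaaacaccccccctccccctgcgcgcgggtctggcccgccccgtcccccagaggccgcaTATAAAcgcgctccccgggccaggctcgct
DUSP2: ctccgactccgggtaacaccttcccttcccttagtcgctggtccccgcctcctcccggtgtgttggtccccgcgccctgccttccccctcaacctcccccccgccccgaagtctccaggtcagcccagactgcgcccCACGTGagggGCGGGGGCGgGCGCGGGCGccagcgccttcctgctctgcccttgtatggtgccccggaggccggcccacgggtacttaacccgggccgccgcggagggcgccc
DUSP8: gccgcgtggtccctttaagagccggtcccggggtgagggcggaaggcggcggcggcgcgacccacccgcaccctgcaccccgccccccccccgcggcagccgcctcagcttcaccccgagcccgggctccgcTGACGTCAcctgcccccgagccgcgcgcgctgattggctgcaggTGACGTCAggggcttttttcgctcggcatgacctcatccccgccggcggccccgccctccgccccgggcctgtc
DUSP16: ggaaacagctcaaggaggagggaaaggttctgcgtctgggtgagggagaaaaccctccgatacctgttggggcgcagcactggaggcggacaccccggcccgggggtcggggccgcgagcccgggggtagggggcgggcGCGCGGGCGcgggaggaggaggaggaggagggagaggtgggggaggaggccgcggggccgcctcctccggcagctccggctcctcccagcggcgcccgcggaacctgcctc

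The nuclear, inducible class stood lowest with EPO. All 4 of its members had a negative difference as deposited, although DUSP4 turned positive (0.14) under 1 of the scalings described below, and 1 of them, DUSP1, was at least 2-fold lower. Of all genes, 0.899% passed 2-fold in the lower direction and 6.20% in the higher direction, and 54.6% had a negative difference. The median difference of the class was -0.84, against -0.047 for all genes. Negative differences were common among genes of families that most cells keep silent, such as olfactory receptors. Of 460 such genes 421 were negative, with a median of -0.32. DUSP5, DUSP2 and DUSP4 lay at percentiles 2.83, 12.8 and 68.9 of these silent families.

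DUSP1 encodes MKP-1, a nuclear phosphatase of p38, JNK and ERK and a classical immediate-early gene. Its value was -0.51 on the array with EPO and 1.19 on the array without EPO. Both stood near the ends of their arrays, at percentile 0.251 of all genes with EPO and 99.6 without EPO. The difference of -1.70 corresponds to 3.26-fold lower with EPO, and 57 of the 18356 genes had a lower one. No gene of the cellular machinery class, which holds 305 genes of the proteasome, mitochondrial ribosome, respiratory chain, spliceosome and similar complexes, lay lower than DUSP1. Among the 460 genes of the silent families, 0.217% lay lower.

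DUSP5 encodes a nuclear phosphatase that acts on ERK alone and can hold inactive ERK in the nucleus. It stood at -0.32 with EPO and 0.64 without EPO. The difference of -0.96 (1.95-fold lower) fell just short of the 2-fold rule, and 0.975% of all genes lay lower. DUSP2, which encodes PAC-1, a phosphatase of ERK and p38 known from activated blood cells, stood at -0.20 with EPO and 0.52 without EPO. Its difference was -0.72 (1.65-fold lower), at percentile 2.35 of all genes.

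DUSP4 encodes MKP-2, the closest nuclear relative of MKP-1. It stood at -0.12 with EPO and 0.064 without EPO, a difference of -0.19 (1.14-fold lower) at percentile 33.5 of all genes. DUSP4 was thus the member of the nuclear class nearest to no difference, and its difference lay among those of DUSP9, DUSP8 and DUSP6 from the other classes (-0.28, -0.21 and -0.10).

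**Figure D1:**
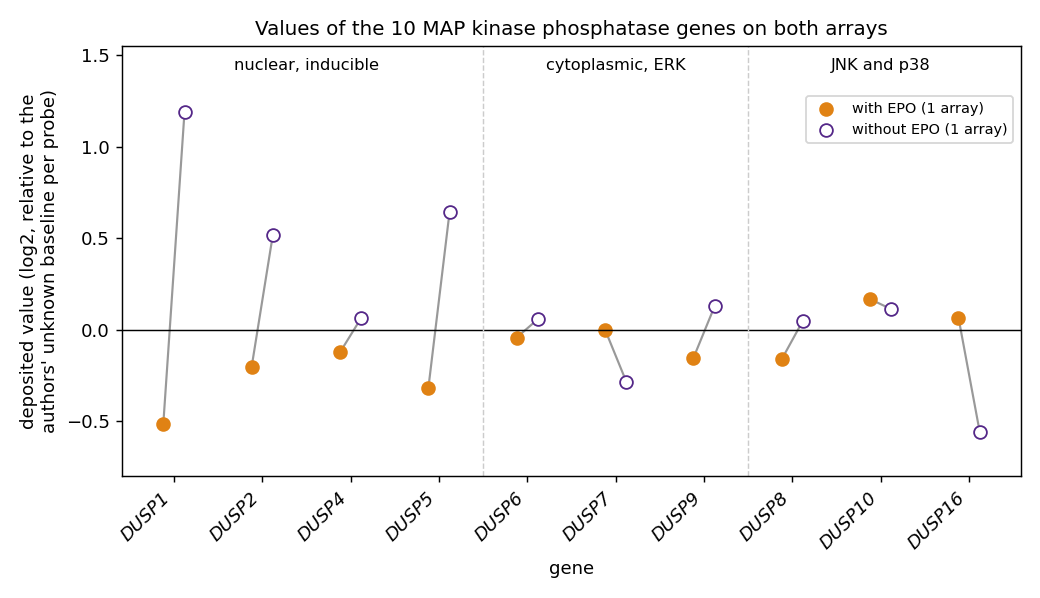
Deposited value (log2, relative to an unknown baseline) of the 10 genes on the array with EPO (filled) and the array without EPO (open), 1 array each, with a line joining the pair of each gene. The widest gaps belong to DUSP1, DUSP5 and DUSP2, where the value with EPO lies below 0 and the value without EPO above 0; DUSP16 and DUSP7 run the other way.

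The cytoplasmic, ERK-directed class was within 2-fold throughout. DUSP6 encodes MKP-3, the phosphatase whose gene is itself induced by ERK and which closes the best known feedback loop on that kinase. It stood at -0.043 with EPO and 0.058 without EPO. The difference was -0.10, near the middle of all genes at percentile 43.8. RefSeq also lists a readthrough transcript, POC1B-DUSP6, which the single DUSP6 probe may not tell apart from DUSP6.

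DUSP7, a close relative of DUSP6, stood at 0.00027 with EPO and -0.28 without EPO, a difference of 0.28 (1.22-fold higher). DUSP9 encodes MKP-4, which prefers ERK and also acts on p38, and which in mice is needed in the placenta. It stood at -0.15 with EPO and 0.13 without EPO, a difference of -0.28 (1.22-fold lower). DUSP7 and DUSP9 thus differed by nearly the same amount in opposite directions, and the class median was -0.10.

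The JNK- and p38-directed class held the highest difference of the family. DUSP16 encodes MKP-7, which shuttles between nucleus and cytoplasm and prefers JNK. It stood at 0.066 with EPO and -0.56 without EPO. The difference of 0.62 (1.54-fold higher) lay at percentile 83.1 of all genes, and at 61.6 of the machinery class, whose median difference was 0.50.

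DUSP10 encodes MKP-5, a phosphatase of JNK and p38. It stood at 0.17 with EPO and 0.11 without EPO, the single member above the baseline on both arrays, and its difference was 0.055. DUSP8, which encodes a phosphatase of JNK and p38 known mainly from brain and heart, stood at -0.16 with EPO and 0.050 without EPO, a difference of -0.21. The class median was 0.055, with 2 of 3 differences positive and 0 of 3 past 2-fold.

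Grouped by substrate, the members that act on several MAP kinases (DUSP1, DUSP2 and DUSP4) had a median difference of -0.72, the ERK-selective members (DUSP5, DUSP6, DUSP7 and DUSP9) -0.19 and the JNK- and p38-directed members 0.055. The ERK-selective members ranged from -0.96 for the nuclear DUSP5 to 0.28 for the cytoplasmic DUSP7. No gap between classes was tested, since 1 array per group gives no error for it. In order of the difference, the members ran DUSP1, DUSP5, DUSP2, DUSP9, DUSP8, DUSP4, DUSP6, DUSP10, DUSP7 and DUSP16. The widest gap between neighbours, 0.74, separated DUSP1 from DUSP5, and the narrowest, 0.023, separated DUSP8 from DUSP4. No spread over samples is at hand to say which neighbours differ.

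**Figure D2:**
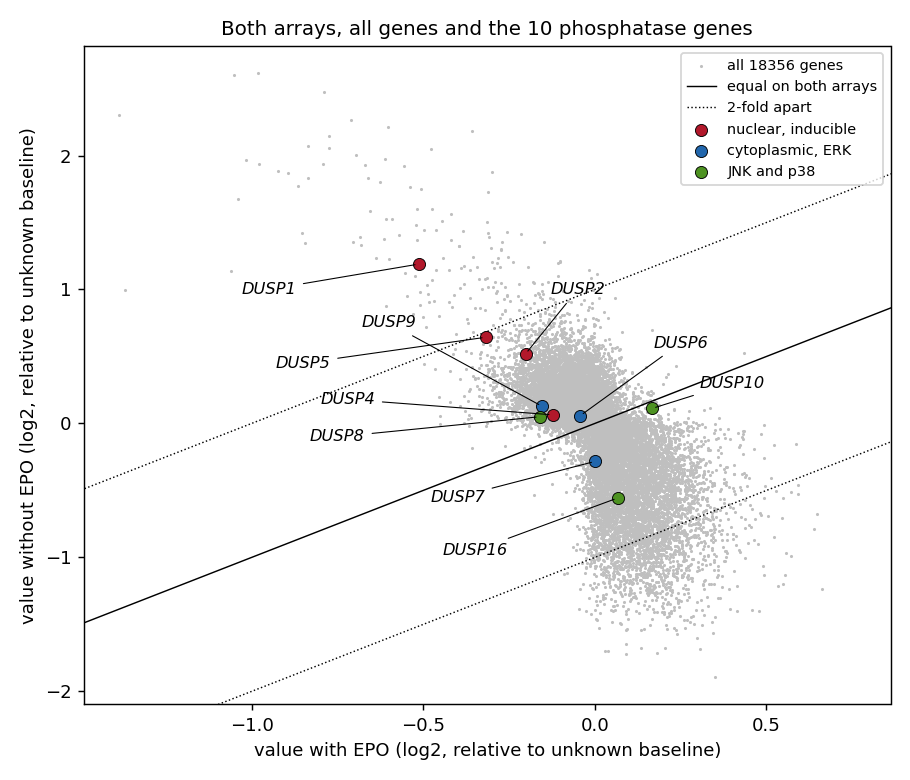
Value with EPO (horizontal) against value without EPO (vertical), both log2 relative to an unknown baseline, for all 18356 genes (grey) and the 10 members (coloured by class); the solid line marks equal values and the dotted lines 2-fold. DUSP1 lies outside the upper dotted line at -0.51 with EPO and 1.19 without EPO, DUSP5 lies just inside it, and DUSP10 is the member nearest to the line of equal values.

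Relative to the baseline, 3 of the 10 members lay above 0 with EPO, against 49.3% of all genes, and 8 of the 10 lay above 0 without EPO, against 54.7% of all genes. On the centred values 83.1% of all genes lay on opposite sides of the baseline, so the sides do not show which array moved. A member was below the baseline with EPO and above it without EPO in 7 of 10 cases, against 44.3% of all genes, and the reverse held for DUSP7 and DUSP16, against 38.8% of all genes. The array without EPO deviated more widely, and the standard deviation over probes was 0.134 with EPO and 0.431 without EPO. In 82.6% of all genes the value without EPO lay farther from the baseline than the value with EPO. Among the members this held for 6 of 10, the exceptions being DUSP4, DUSP8, DUSP9 and DUSP10.

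The split of calls over all genes depended on how the arrays are scaled to each other. As deposited, 1138 genes passed 2-fold as higher with EPO and 165 as lower. With the median of all genes subtracted, 7.17% were higher and 0.850% lower. With the median difference of the machinery class subtracted, 112 were higher (0.610%) and 1366 lower (7.44%). With that of the silent families (-0.32) subtracted, 2759 were higher (15.0%) and 105 lower (0.572%).

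DUSP1 was past 2-fold lower under each of these scalings, at -2.20 with the machinery median subtracted and -1.38 with the silent median subtracted. DUSP5 and DUSP2 were lower under each as well, but past 2-fold only with the machinery median subtracted, at -1.46 and -1.22. At a threshold of 1.5-fold on the deposited values, which 4.65% of all genes passed as lower and 18.1% as higher, DUSP1, DUSP2 and DUSP5 were lower and DUSP16 was higher. With the silent median subtracted DUSP5 and DUSP2 stood at -0.64 and -0.40. DUSP16 stayed positive under each, from 0.12 with the machinery median subtracted to 0.95 with the silent median subtracted. The other 6 members changed sign under 1 of the scalings: DUSP7 and DUSP10 became negative with the machinery median subtracted (-0.21 and -0.44), and DUSP4, DUSP6, DUSP8 and DUSP9 became positive with the silent median subtracted (0.14, 0.22, 0.11 and 0.041).

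**Figure D3:**
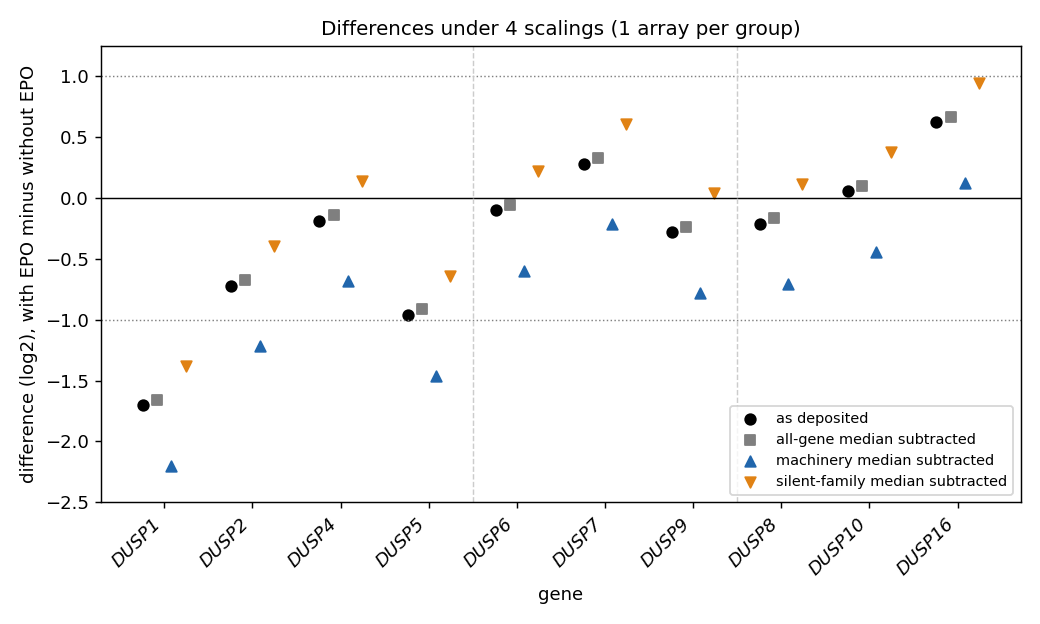
Difference (log2, with EPO minus without EPO, 1 array each) of the 10 members as deposited and with the median of all genes, of machinery genes or of silent families subtracted; dotted lines mark 2-fold. DUSP1 lies below -1 under all 4 scalings, from -2.20 to -1.38, whereas 6 members cross 0.

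The kinases of the MAP kinase pathways were called about as often as genes in general: of 34 measured genes in 4 lists, 2 (5.88%) were at least 2-fold higher, against 6.20% of all genes, and 0 were lower. Of the ERK module, from the RAF kinases to ERK, 6 of 9 listed genes were measured and 0 were past 2-fold in either direction, with a median difference of 0.20. MAPK3, which encodes ERK1, stood at -5.05e-05 with EPO and -0.025 without EPO, a difference of 0.025. The ERK-activating kinases MAP2K1 and MAP2K2 had differences of 0.20 each, and the largest difference was 0.62 for the scaffold KSR1. The transcripts of the kinases that DUSP5, DUSP6, DUSP7 and DUSP9 restrain were thus within 2-fold where measured.

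Of the JNK module, 9 of 10 listed genes were measured, 1 was at least 2-fold higher and 0 were lower, with a median of 0.31. The higher gene was the upstream kinase MAP3K1, at 0.27 with EPO and -0.76 without EPO (difference 1.03). MAPK8, which encodes JNK1, had a difference of 0.49 and MAPK9, which encodes JNK2, 0.76. Of the p38 module, 8 of 9 were measured and 0 were past 2-fold, with a median of -0.043 and the largest difference, 0.81, in the upstream kinase MAP3K7. Of 11 MAP kinase-activated kinases, 1 was higher, the ribosomal S6 kinase gene RPS6KA3 at 0.11 with EPO and -0.95 without EPO (difference 1.06), and 0 were lower. With the machinery median subtracted, the medians of the ERK, JNK and activated-kinase lists became negative (-0.29, -0.19 and -0.26), and neither MAP3K1 (0.53) nor RPS6KA3 (0.56) stayed past 2-fold.

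The atypical dual-specificity and the tyrosine phosphatases of MAP kinases were called about as often as genes in general, with 4.76% of 21 genes higher, against 6.20% of all genes, and 0 lower. Of 18 atypical dual-specificity phosphatases, which lack the kinase-binding domain, 1 was higher and 0 lower, with a median of -0.0037. The higher gene was STYX, a catalytically dead relative that can bind ERK, at 0.20 with EPO and -1.14 without EPO (difference 1.35). With the machinery median subtracted STYX stood at 0.85, within 2-fold. Of the 3 MAP kinase tyrosine phosphatases, 0 were past 2-fold, and the largest difference was -0.39 for PTPN5.

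Serine-threonine phosphatases that act on MAP kinase pathways all had positive differences as deposited. A positive difference was also found for 8335 of all 18356 genes and for 248 of the 305 machinery genes. Of the 7 phosphatase genes, 3 were at least 2-fold higher and 0 lower, with a median of 0.86. Of all genes, 6.20% were at least 2-fold higher and 0.899% lower. The higher genes were PPP2CB, a catalytic subunit of protein phosphatase 2A, at 1.36, PPM1A, a phosphatase of p38 and its activators, at 1.30, and PPP2R2A, a regulatory subunit of protein phosphatase 2A, at 1.15. They lay at percentiles 97.0, 95.7 and 92.8 of the machinery class, and with that class's median subtracted they stood at 0.86, 0.80 and 0.65, within 2-fold.

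**Figure D4:**
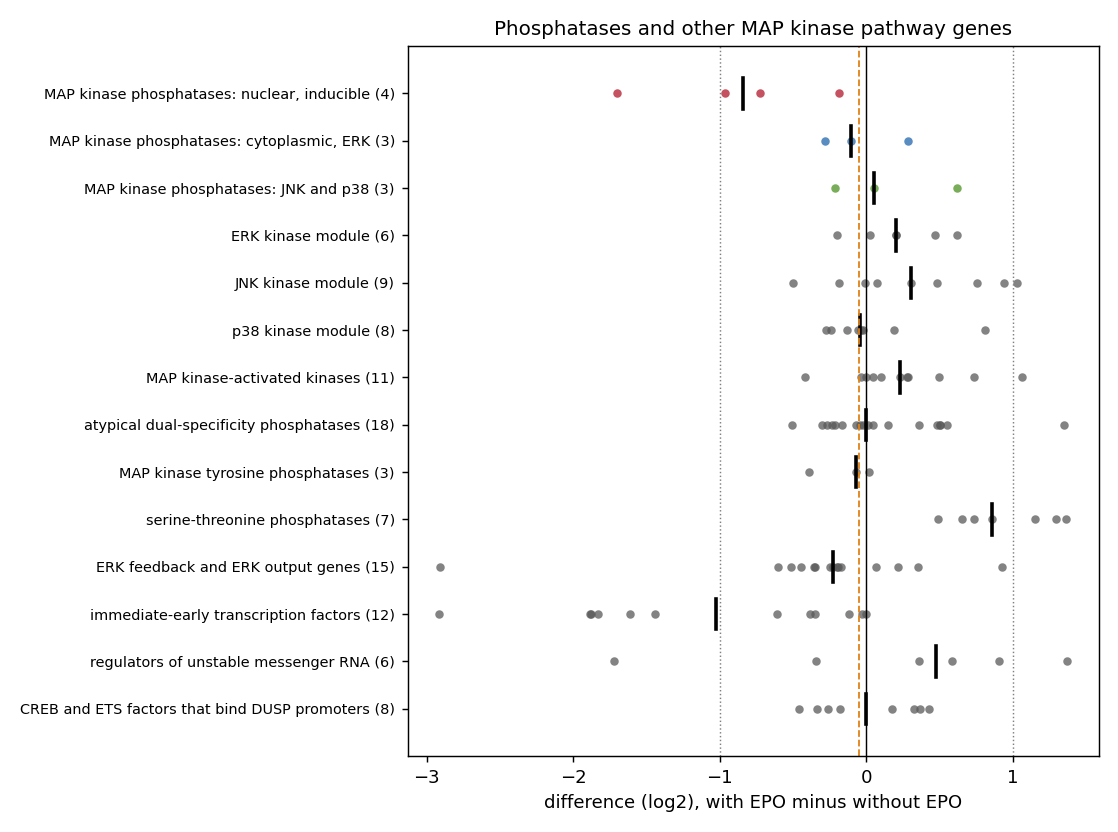
Difference (log2, with EPO minus without EPO, 1 array each) of every measured gene, by phosphatase class and by list of other MAP kinase pathway genes, with the number of genes in brackets; black bars are medians, dotted lines 2-fold and the dashed line the median of all genes (-0.047). The nuclear, inducible phosphatases (median -0.84) and the immediate-early factors (median -1.02) lie farthest left, the serine-threonine phosphatases (median 0.86) farthest right.

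Of 12 measured immediate-early transcription factors, 6 passed 2-fold as lower with EPO and 0 as higher, with a median of -1.02. Of all genes, 0.899% passed 2-fold as lower and 6.20% as higher. The list was chosen with earlier results of these data known, so no excess is read from these shares. Its members nearest to no difference were KLF6 (-0.031) and SRF (-6.3e-05). EGR1 stood at -0.98 with EPO and 1.94 without EPO (difference -2.92), and JUNB, JUN and FOSB had differences of -1.88, -1.88 and -1.83. DUSP1 at -1.70 lay close to the last 3. Of 15 other genes of ERK feedback and ERK output, 1 was lower and 0 higher, with a median of -0.23. The lower gene was IER3, itself an immediate-early gene, at -0.84 with EPO and 2.07 without EPO (difference -2.91).

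Of 6 regulators of unstable messenger RNA, ZFP36, which encodes the decay factor tristetraprolin, a known target of p38 signalling, was lower, at -0.40 with EPO and 1.33 without EPO (difference -1.72). ELAVL1, which encodes the stabilising factor HuR, was higher, at 0.11 with EPO and -1.27 without EPO (difference 1.37, and 0.87 with the machinery median subtracted). DUSP1 messenger RNA is known to be bound by both proteins. Of 8 measured CREB and ETS factors, 0 were past 2-fold, and the largest difference was -0.46 for ATF2. Over all 103 measured genes of the 11 lists, 7 (6.80%) were higher, against 6.20% of all genes, and 8 (7.77%) were lower, against 0.899% of all genes. The 8 lower genes were 6 immediate-early factors, IER3 and ZFP36. Because the lists were chosen with earlier results of these data known, the share of lower genes cannot show an excess.

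The genes whose pair of values lay nearest to that of DUSP1, small RNAs and unnamed loci left out, were ANKRD20A8P, H2AC17 and FOSB, at distances of 0.065, 0.090 and 0.094 on the log2 scale of both arrays. With 2 arrays this likeness rests on a pair of numbers for each gene. ANKRD20A8P is a pseudogene with 6 probes, and H2AC17 is a histone gene of a near-identical family, so the identity of both signals is uncertain.

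Among the start regions described here, only that of DUSP1 held TATAAA, and its other motifs were shared with DUSP8 or DUSP2. RefSeq windows of 8 of the 10 members are described, and those of DUSP4 and DUSP5 are not reported here. In each, 9 motifs were searched on both strands of the 250 bases before the start. The DUSP1 window shown above holds the full cyclic AMP response element, which 1.65% of all 35116 windows hold, with 117 bases between it and the start. The short form TGACG, which lies within the full element, matched at 4 positions in DUSP1 and is found in 21.2% of all windows. DUSP1 also holds TATAAA, with 24 bases between it and the start, against 10.7% of all windows, and an E box, against 6.34%.

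DUSP8, whose difference was -0.21, holds 2 full cyclic AMP response elements and, like DUSP1, 4 matches to the short form. DUSP2 (-0.72) holds an E box and 2 matches to the EGR1 site, which 8.41% of all windows hold, and DUSP16 (0.62) holds 1 such match. The windows of DUSP6, DUSP7, DUSP9 and DUSP10 hold none of the 9 motifs. AP-1 (TGANTCA), ETS (CCGGAAGT) and STAT5 (TTCNNNGAA) sites and the CArG box of serum response factor had no match in the members' windows described here. They are found in 6.57%, 3.42%, 6.57% and 1.16% of all windows. A match to letters is not a measured binding site.

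**Figure D5:**
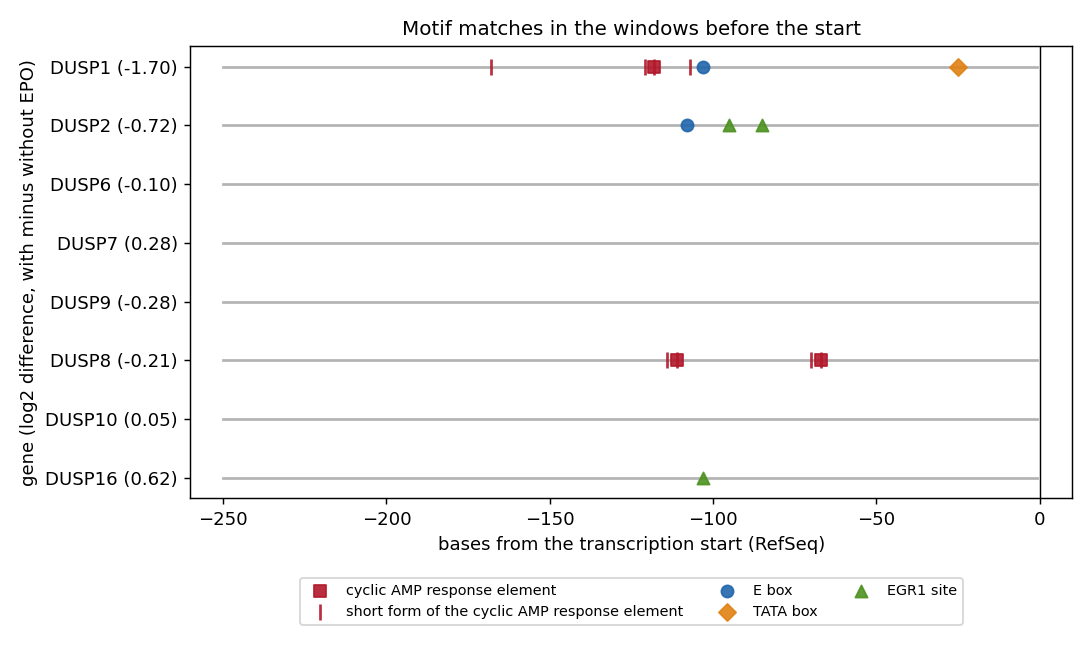
Positions of motif matches in the 250 bases before the annotated start (horizontal axis, bases from the start) of the 8 members whose RefSeq window is described, with each gene's log2 difference in brackets. Matches to the cyclic AMP response element lie in DUSP1 and DUSP8, the single TATA box lies in DUSP1, and the lines of DUSP6, DUSP7, DUSP9 and DUSP10 are empty.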

How the data were processed

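RNA of 2 K562 samples was isolated with a column kit, labelled as sense-strand cDNA and hybridised to Gene 1.0 ST arrays, per the labels' protocols. The authors deposited log2 values for 28869 probes by 2 arrays. How background and arrays were corrected, with which software and to which log base, is not stated in the labels or the table. Base 2 is assumed. Values lie on both sides of 0, with column medians of -0.0089 with EPO and 0.052 without EPO. Array intensities and depth over background are unknown, so a filter on dim genes was not possible.

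Of the probes, 19311 carried 1 gene symbol in the platform annotation, 1751 several and 7807 none listed. Symbols were updated by Entrez ID (19279 matched) through RefSeq GRCh38.p14. Probes of a gene were averaged, giving 18356 genes. A gene was called at 2-fold. The averaging and the calls were run on simulated probes to check the code, which gives no error for the calls. Class medians used for scaling came from symbol patterns. Alternatives were other scalings, a 1.5-fold threshold, other rules for probes, the mean of a list and a grouping by substrate. All 10 members are named. In each list the named genes are those past 2-fold, up to 4, and otherwise the largest difference, besides the main kinases. The members, lists and motifs were chosen with earlier results of these data known. Of the 110 genes listed, 7 were not analysed here. Tools were pandas 2.3.3, NumPy 2.4.6 and Python 3.11.15.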

Additional observations from a re-analysis of the deposited data

How the results depend on the processing

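With 1 array per group and no measure of signal over background, no difference has an error, and the scaling between the arrays decides the sign of 6 of the 10 members. DUSP1, DUSP2 and DUSP5 kept a negative difference, and DUSP16 a positive one, under each scaling tried. The rules for probes could not move the members, which have 1 probe each, and a fold threshold moves calls, not signs. No paired analysis was possible because each group has 1 array.

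With the machinery median subtracted, DUSP2 (-1.22), DUSP5 (-1.46) and the nuclear class median (-1.34) passed 2-fold. Signs changed for DUSP7 (-0.21), DUSP10 (-0.44), the JNK- and p38-directed class (-0.44), the ERK (-0.29), JNK (-0.19) and activated-kinase (-0.26) lists and the regulators of unstable messenger RNA (-0.023). The counts became 112 higher and 1366 lower. With the silent median subtracted, signs changed for DUSP4 (0.14), DUSP6 (0.22), DUSP8 (0.11), DUSP9 (0.041), the cytoplasmic class (0.22), the p38 list (0.28), atypical phosphatases (0.32), tyrosine phosphatases (0.25), ERK feedback genes (0.095) and CREB and ETS factors (0.32). The serine-threonine phosphatase median (1.18) passed 2-fold, the immediate-early median (-0.70) no longer did, and 2759 genes were higher and 105 lower. With the median of all genes subtracted, the immediate-early median (-0.98) fell short of 2-fold, and the medians of the p38 list (0.0034), atypical phosphatases (0.043) and CREB and ETS factors (0.044) became positive. These moves follow from the constant subtracted.

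At 1.5-fold, DUSP2 (-0.72), DUSP5 (-0.96) and DUSP16 (0.62) passed, as did the medians of the nuclear class (-0.84) and of the serine-threonine phosphatases (0.86), with 3330 genes higher (18.1%) and 854 lower (4.65%). By the mean of each list, the p38 list (0.032), atypical phosphatases (0.12) and CREB and ETS factors (0.0067) turned positive. With probes of several genes included, 255 genes were lower.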

Other observations

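Over all genes, the calls differed with the letters before the start, a comparison chosen after the data were seen and given with no test. Of 1607 measured genes with TATAAA in their window, 27 (1.68%) passed 2-fold as lower with EPO, against 73 of 14211 genes with any window (0.514%). Without the replication-dependent histone genes, the shares were 1.27% and 0.466%. DUSP1, FOS, FOSB and JUNB are themselves among the 27. The 403 genes with the full cyclic AMP response element had 4 lower (0.993%), DUSP1 among them, and 41 higher (10.2%). Their median difference was 0.19. All genes with a window had 6.82% higher and a median of -0.017. The 846 genes with the ETS site had 100 higher (11.8%) and a median of 0.37.

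Of the immediate-early transcription factors, 11 had a window. The short form TGACG, found in the DUSP1 window, was in the windows of 7 of these 11, including the 6 that were at least 2-fold lower (FOS, FOSB, JUN, JUNB, EGR1 and IER2). It was also in those of 31.0% of all genes with a window, and these 4406 genes had 0.635% lower, 8.87% higher and a median difference of 0.12. Of the 11, 4 held TATAAA (FOS, FOSB, JUNB and ATF3). The windows of FOS, FOSB and JUNB, like that of DUSP1, held both. The full element was in 0 of the 11. The list was chosen with earlier results of these data known, and the 6 were picked by their own differences. DUSP1 and these 6 are also among the lower genes of the 4406. The counts therefore cannot show a link between motif and difference, and none was tested.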
